A study of Mus musculus and Homo sapiens with 14 samples.

Results

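Solute carriers are the membrane proteins, named Slc or Slco, that move sugars, amino acids, ions, metals, vitamins and organic anions across the plasma membrane and the membranes of organelles. Here they were all genes whose symbol begins with Slc and a digit or with Slco, apart from the amino acid carriers Slc7a5, Slc3a2, Slc7a11, Slc7a1 and Slc1a5, which were left out of the set. There were 378 such genes among the 20682 of the mouse tables and 381 among the 19166 of the human table. The study measured polyA-selected messenger RNA in 14 libraries of acute myeloid leukemia cells, in 7 groups of 2. RN2c cells are mouse leukemia cells, driven by MLL-AF9 and mutant Nras, that carry Cas9. They were infected with a lentivirus bearing a guide against Mef2c (guides 1 and 2), against Sik3 (guides e1 and e3) or against the Rosa26 locus, the control for cutting (2 libraries), and collected on day 2 after infection. RN2 cells, the same mouse leukemia, whose library titles also carry the word empty, received 350 nM YKL-05-099 or 0.1% DMSO for 2 hours; the compound inhibits SIK kinases, of which Sik3 encodes a member. MOLM-13 cells, a human leukemia line with MLL-AF9 that harbors an empty vector, received 250 nM YKL-05-099 or 0.1% DMSO for 2 hours. The libraries of each sgMef2c or sgSik3 group differ in their guide, so the spread within a group includes the difference between guides. The labels do not say whether infected cells were selected, and the RNA is that of the whole culture.

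Most solute carriers couple the transport of a solute to a gradient of sodium, protons or another solute, or let it pass down its own gradient. Some work in pairs within a cell, such as monocarboxylate carriers that take up or release lactate, zinc importers (Slc39) and zinc exporters (Slc30), and the iron importer Slc11a2 and the iron exporter Slc40a1. The Slc25 family sits mainly in the inner mitochondrial membrane and exchanges nucleotides, phosphate, amino acids and cofactors with the cytosol. In myeloid cells, Slc11a1 is the metal carrier of the phagosome and in macrophages Slc40a1 returns iron recovered from engulfed red cells to the blood.

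Values below are normalized read counts, that is, reads divided by a size factor of the library. The deposited table of each comparison has its own scale, and where sgMef2c, sgSik3 and sgRosa26 cells are set side by side a common scale was computed. Log2 fold changes are differences of log2(value + 1), knockout over sgRosa26 or treated over DMSO. A gene was tested where its mean reached 10, and passed where its adjusted p over all genes of the table was under 0.05. Library depth lay between 13961461 and 24275290 recovered reads. The targeted genes went the way their labels say. Mef2c had 3892 and 4021 normalized reads in sgMef2c cells, against 8395 and 8369 in sgRosa26 cells. Sik3 had 1219 and 1169 normalized reads in sgSik3 cells, against 1939 and 1878 in sgRosa26 cells. All 7 myeloid markers were tested and present in each mouse table, while erythroid markers, Cd3e, Cd3g, Pf4 and Krt18 were at 0 in all RN2c libraries. Granulocyte markers moved with the knockouts, with 11 of 13 higher in sgMef2c cells and 12 of 13 in sgSik3 cells. The sum of that list on the common scale ranged from 214590 to 296991 in sgMef2c cells, from 208171 to 221981 in sgSik3 cells and from 107789 to 114594 in sgRosa26 cells. The mast cell list had 1 of 2 tested members lower in each knockout, with sums of 353 to 513 in sgMef2c cells, 581 to 614 in sgSik3 cells and 833 to 1835 in sgRosa26 cells. Of the 7 myeloid markers, 4 were higher and 1 lower with sgMef2c and 6 were higher with sgSik3. Their sum ranged from 71961 to 77579.7 in sgMef2c cells, from 69488 to 70617 in sgSik3 cells and from 48700.4 to 52238 in sgRosa26 cells. The 1 tested endothelial marker was lower with sgMef2c, the list summing to 6064 to 6099 in sgMef2c cells, 7221 to 7274 in sgSik3 cells and 7004 to 7158 in sgRosa26 cells. The part of these shifts in the carrier changes described here was not tested. In bulk RNA, fewer cells of a type and less RNA per cell cannot be told apart.

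In the control RN2c cells the carrier mRNAs with the most reads per kilobase of exon were mainly mitochondrial. Per kilobase, the ADP/ATP carrier Slc25a5 had a mean of 8337 ± 107 normalized reads in sgRosa26 cells (SD, n = 2). It was followed by the zinc carrier Slc39a7, which releases zinc from the endoplasmic reticulum (1804 ± 29.8), the phosphate carrier Slc25a3 (1748 ± 40.9), the oxoglutarate carrier Slc25a11 (1314 ± 13.6) and the ADP/ATP carrier Slc25a4 (1311 ± 5.46). All members together held 0.992% and 0.975% of the reads in sgMef2c cells, 0.980% and 0.993% in sgSik3 cells and 1.03% and 1.03% in sgRosa26 cells. Of the 378 mouse genes, 200 in the sgMef2c table, 199 in the sgSik3 table and 189 in the RN2 table reached a mean of 10, as did 202 of the 381 human genes. The others had too few reads, including 100, 107 and 53 genes at 0 in all 4 libraries of those mouse tables and 96 in the human table. A few members reached that mean only through the group in which they were high: Slc10a1, Slc35d3, Slc41a2, Slc52a3, Slc6a12 and Slco4c1 in the sgMef2c table, Slc10a1, Slc26a9, Slc52a3 and Slco4c1 in the sgSik3 table, Slc26a8, Slc2a5, Slc35g2, Slc41a2 and Slc52a3 in the RN2 table, and SLC35E4, SLC46A1 and SLC6A9 in the MOLM-13 table. The direction of such a member follows from the testing floor, so it is given by its values.

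The organic anion carrier Slco4a1, which takes up thyroid hormone and other organic anions, passed the test in 3 comparisons: lower in sgSik3 than in sgRosa26 cells, lower in inhibitor-treated RN2 cells than with DMSO, and higher in sgMef2c than in sgSik3 cells. It was the only carrier past the test in RN2, so no other could pass in all 3. Both comparisons with sgSik3 cells use the same sgSik3 libraries, so they are not independent. Slco4a1 lies on mouse chromosome 2 (chr2:180456226-180474853, GRCm38.p6, as for all positions given). It had 538 and 641 in sgSik3 cells, against 1589.7 and 1676 in sgRosa26 cells. The sgSik3 libraries lay far below both controls (log2 fold change -1.47, SE 0.08, adjusted p = 2.0e-06). With sgMef2c the gene had 1580.3 and 1445 in sgMef2c cells, against 1671 and 1758 in sgRosa26 cells. These groups did not overlap either, but the difference was small and missed the threshold (log2 fold change -0.18, SE 0.06, adjusted p = 0.054), which it passed without guide 1 (adjusted p = 0.024). On the common scale Slco4a1 had 1549 and 1409.9 normalized reads in sgMef2c cells, 553 and 659 in sgSik3 cells and 1629 and 1716 in sgRosa26 cells. The difference between the knockouts was itself past the test (log2 fold change 1.29, SE 0.08, adjusted p = 4.5e-05, edgeR, sgMef2c over sgSik3), and it was the only carrier call there that held with each of the 6 libraries left out in turn. In RN2 cells, 2 hours of the inhibitor left 634 and 586 in treated cells, against 986 and 982 in DMSO cells, with no overlap (log2 fold change -0.69, SE 0.07, adjusted p = 0.0015). This call was lost without the filter on low values (limma, adjusted p = 0.10) and without the mean-variance trend (limma, adjusted p = 0.25). It held in the other 11 alternatives, with an adjusted p of 0.0021 by edgeR. Fits with a library left out or a block for the replicate number borrow most of their spread from other genes. Their p-values are not given for this call. With a library left out, the log2 fold change lay between -0.75 and -0.63. In MOLM-13 cells SLCO4A1 had 582 and 797 in treated cells, against 605 and 808 in DMSO cells, where the spread between the libraries of a group was larger than the difference between groups (log2 fold change -0.039, SE 0.20, adjusted p = 1.0).

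**Figure D1:**
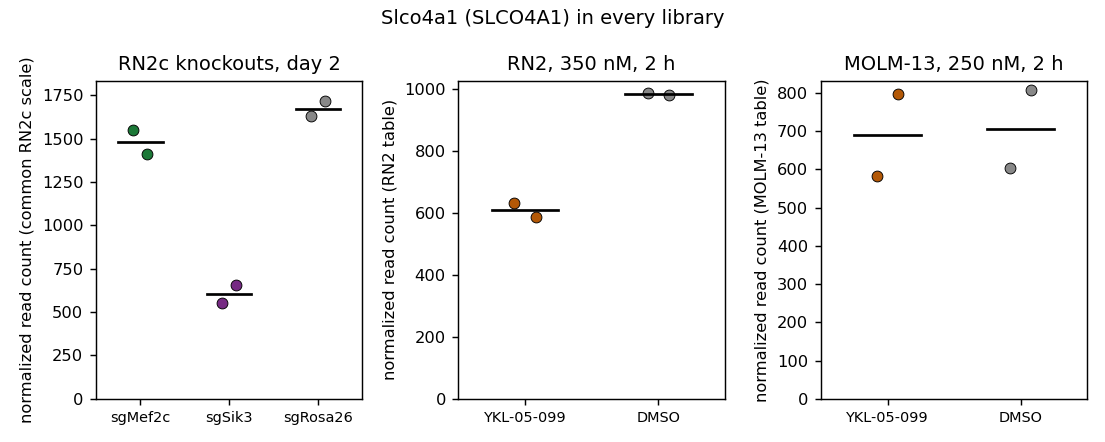
Normalized read count of Slco4a1 (y axis, from 0) in each library (points) with the group mean (line), for the RN2c groups on their common scale, for RN2 and for MOLM-13, each panel on its own scale. The sgSik3 libraries lie at 553 and 659 and treated RN2 libraries at 634 and 586, each below their controls, while the sgMef2c libraries lie near the controls and the MOLM-13 groups overlap.

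The promoter stretches of 4 carriers are shown, since these genes carry the contrasts described here: Slco4a1 (lower with sgSik3 and the inhibitor), the sugar carrier Slc2a6 and the lactate carrier Slc16a1 (lower in both knockouts) and the lactate carrier Slc16a3 (higher in both). Each runs from 250 bases before to 50 bases after a start listed in the RefSeq promoter table (GRCm38.p6), written 5′ to 3′ on the strand of the gene: Slco4a1 at chr2:180455995-180456294 on the plus strand (the first of 2 listed starts), Slc2a6 at chr2:27027949-27028248 on the minus strand, Slc16a1 at chr3:104638414-104638713 on the plus strand and Slc16a3 at chr11:120948817-120949116 on the plus strand. For Slc16a3, annotated at chr11:120948484-120959000, and for Slco4a1 the listed start lies inside the annotated gene. Capitals mark matches, on either strand, to 4 motifs: the CRE core TGACG, the E-box CACGTG, the CCAAT box CCAAT and the MEF2 motif. The MEF2 motif was searched only as CTA, then 4 bases of A or T, then TAG, with no mismatch allowed.
Slco4a1: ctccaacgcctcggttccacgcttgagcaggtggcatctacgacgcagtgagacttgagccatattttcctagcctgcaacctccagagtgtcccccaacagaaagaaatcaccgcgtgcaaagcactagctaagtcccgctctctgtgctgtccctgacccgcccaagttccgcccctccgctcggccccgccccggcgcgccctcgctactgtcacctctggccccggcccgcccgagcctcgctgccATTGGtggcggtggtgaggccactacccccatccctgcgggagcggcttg
Slc2a6: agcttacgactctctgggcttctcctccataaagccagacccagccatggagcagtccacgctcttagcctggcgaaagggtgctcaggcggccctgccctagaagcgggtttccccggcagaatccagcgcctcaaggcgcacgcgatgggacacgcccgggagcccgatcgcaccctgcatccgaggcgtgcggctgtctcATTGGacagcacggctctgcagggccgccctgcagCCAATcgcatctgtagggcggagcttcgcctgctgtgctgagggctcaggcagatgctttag
Slc16a1: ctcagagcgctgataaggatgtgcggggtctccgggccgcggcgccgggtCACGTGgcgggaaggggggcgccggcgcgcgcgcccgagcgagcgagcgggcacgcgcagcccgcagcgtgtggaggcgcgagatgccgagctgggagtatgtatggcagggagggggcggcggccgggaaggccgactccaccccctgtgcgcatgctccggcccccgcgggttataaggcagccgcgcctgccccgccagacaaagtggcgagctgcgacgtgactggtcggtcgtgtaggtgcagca
Slc16a3: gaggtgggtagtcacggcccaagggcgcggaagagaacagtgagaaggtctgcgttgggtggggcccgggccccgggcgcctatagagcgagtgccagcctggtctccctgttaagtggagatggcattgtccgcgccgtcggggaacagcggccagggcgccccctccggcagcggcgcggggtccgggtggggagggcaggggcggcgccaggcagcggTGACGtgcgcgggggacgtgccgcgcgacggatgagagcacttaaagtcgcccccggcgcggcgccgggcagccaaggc
The Slco4a1 stretch holds 1 CCAAT box, read on the opposite strand, and the Slc2a6 stretch holds 2. The Slc16a1 stretch holds 1 E-box and the Slc16a3 stretch 1 CRE core. None of the 4 holds the MEF2 motif in this exact form, which few stretches hold, so looser MEF2 sites were not searched for. Over all 32851 promoter stretches of this length, 37.4% hold the CCAAT box, 7.15% the E-box, 20.8% the CRE core and 0.557% the MEF2 motif. Over the 375 stretches listed for 294 members, the shares are 33.9%, 11.7%, 21.1% and 0.267% in the same order. No motif overlaps another in the stretches shown.

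With sgMef2c, 37 of the 200 tested carriers were higher and 43 lower than in sgRosa26 cells, 40.0% in all, where 31.4% of all 10956 genes tested passed (16.3% higher and 15.1% lower). With sgSik3, 50 of 199 were higher and 51 lower, 50.8% in all, where 47.8% of all 10934 genes passed (23.9% higher and 23.9% lower). The gaps between carriers and all genes were not tested. The median log2 fold change of the tested members was -0.015 with sgMef2c and 0.017 with sgSik3, against medians over all genes of 0.00016 and -0.00054. Most changes were modest: past the test, 7 carriers were more than 2-fold higher and 4 more than 2-fold lower in each knockout. Among these, Slco4c1 in both knockouts and Slc6a12 and Slc35d3 with sgMef2c had reached the testing floor through 1 group alone. Without sgMef2c guide 2 the sgMef2c counts fell to 19 higher and 23 lower, without either sgRosa26 library 28 were lower, and without either sgSik3 guide the sgSik3 count fell to 33 higher. With DESeq2 in place of limma, 28 carriers were lower with sgMef2c and 29 higher with sgSik3. Both comparisons use the same sgRosa26 libraries, so a match between them is not independent and each is given with its own values.

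**Figure D2:**
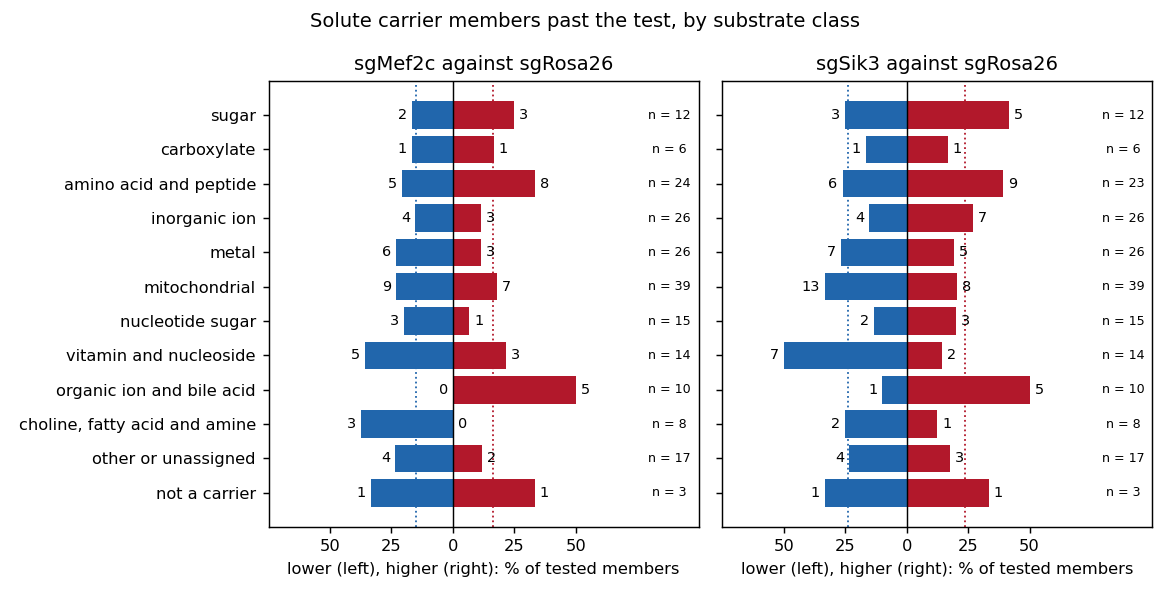
Share of tested carriers past the test (x axis, percent of the class), lower to the left and higher to the right of 0, by substrate class, for sgMef2c (left) and sgSik3 (right) against sgRosa26; figures at the bars are counts of genes, n is the number tested and dotted lines mark the share of all genes past the test in that direction. Organic ion and bile acid carriers include 5 higher members in each knockout, and vitamin and nucleoside carriers 5 lower with sgMef2c and 7 lower with sgSik3.

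Among sugar carriers, 3 of 12 were higher and 2 lower with sgMef2c, where 16.3% of all genes were higher and 15.1% lower. The sgSik3 counts were 5 higher and 3 lower of 12, where 23.9% of all genes passed in each direction. The gap between a class and all genes was not tested, here or for the classes below. The glucose transporter Slc2a6 (GLUT6, chr2:27021363-27028000) sits on lysosomal membranes and was lower in every knockout library than in any control. It had 489 and 388 in sgMef2c cells, against 991 and 1089 in sgRosa26 cells (log2 fold change -1.25, SE 0.11, adjusted p = 6.3e-04). Slc2a6 had 499 and 487 in sgSik3 cells, against 942.6 and 1039 in sgRosa26 cells (log2 fold change -1.004, SE 0.07, adjusted p = 5.2e-06). The high-affinity glucose transporter Slc2a3 (GLUT3) went the other way with sgSik3. It had 162 and 121 in sgSik3 cells, against 19.8 and 42.9 in sgRosa26 cells (log2 fold change 2.22, SE 0.32, adjusted p = 4.7e-04). Its sgMef2c libraries were far apart, at 55.5 and 170.2 in sgMef2c cells, against 20.8 and 45.0 in sgRosa26 cells, and the difference missed the threshold (log2 fold change 1.64, SE 0.54, adjusted p = 0.058). Slc37a1, a glucose-6-phosphate exchanger of the endoplasmic reticulum, was higher in both knockouts. It had 538 and 561 in sgMef2c cells, against 394 and 400.4 in sgRosa26 cells (log2 fold change 0.47, SE 0.07, adjusted p = 0.0037). Slc37a1 had 506 and 486 in sgSik3 cells, against 374 and 382 in sgRosa26 cells (log2 fold change 0.39, SE 0.07, adjusted p = 0.0020). The main glucose transporter of blood cells, Slc2a1, did not pass with sgMef2c (log2 fold change -0.092, SE 0.06, adjusted p = 0.24) or with sgSik3 (log2 fold change 0.019, SE 0.05, adjusted p = 0.78).

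The sodium-coupled carriers of myo-inositol, an osmolyte and lipid precursor, passed the test in opposite directions in both knockouts. Slc5a11 (SMIT2) was higher with sgMef2c, at 202 and 247 in sgMef2c cells, against 137 and 113 in sgRosa26 cells (log2 fold change 0.84, SE 0.15, adjusted p = 0.0068). With sgSik3, Slc5a11 had 174 and 149.6 in sgSik3 cells, against 131 and 107.7 in sgRosa26 cells (log2 fold change 0.44, SE 0.15, adjusted p = 0.033), a call lost without sgRosa26 library 2, guide e1 or guide e3 (adjusted p = 0.058 to 0.223). Slc5a3 (SMIT1) was lower with sgMef2c, at 145 and 114 in sgMef2c cells, against 181 and 196 in sgRosa26 cells (log2 fold change -0.54, SE 0.15, adjusted p = 0.029), a call lost without guide 2, sgRosa26 library 1 or sgRosa26 library 2 (adjusted p = 0.067 to 0.149). With sgSik3, Slc5a3 had 112 and 141 in sgSik3 cells, against 172 and 186 in sgRosa26 cells (log2 fold change -0.51, SE 0.14, adjusted p = 0.015), a call lost without guide e1 (adjusted p = 0.129).

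The proton-coupled lactate carriers changed in opposite directions in both knockouts. Slc16a1 (MCT1, chr3:104638664-104658462), which carries lactate, pyruvate and ketone bodies in either direction, was lower. It had 1934 and 1776 in sgMef2c cells, against 2498 and 2509 in sgRosa26 cells (log2 fold change -0.43, SE 0.05, adjusted p = 0.0016). Slc16a1 had 1359 and 1420.2 in sgSik3 cells, against 2376 and 2393 in sgRosa26 cells (log2 fold change -0.78, SE 0.04, adjusted p = 2.0e-06). Slc16a3 (MCT4), the lactate exporter of highly glycolytic cells, was higher. It had 1337 and 1726 in sgMef2c cells, against 863 and 787 in sgRosa26 cells (log2 fold change 0.88, SE 0.12, adjusted p = 0.0021). Slc16a3 had 1438 and 1486 in sgSik3 cells, against 821 and 751 in sgRosa26 cells (log2 fold change 0.90, SE 0.06, adjusted p = 4.4e-06). Knockout and control libraries did not overlap for either gene. The other 4 tested carboxylate carriers did not pass in either comparison.

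Of the amino acid and peptide carriers, 8 of 24 tested were higher and 5 lower with sgMef2c (16.3% and 15.1% of all genes). The sgSik3 counts were 9 higher and 6 lower of 23 (23.9% and 23.9% of all genes). The aromatic amino acid carrier Slc16a10 (TAT1) and the creatine carrier Slc6a8 were lower in every knockout library than in any control library. Slc16a10 had 2367 and 2232 in sgMef2c cells, against 3623 and 3519 in sgRosa26 cells (log2 fold change -0.64, SE 0.05, adjusted p = 3.9e-04). In the sgSik3 table it had 2355 and 2328 in sgSik3 cells, against 3447 and 3357 in sgRosa26 cells (log2 fold change -0.54, SE 0.04, adjusted p = 5.8e-06). Slc6a8 had 213 and 173 in sgMef2c cells, against 372 and 377 in sgRosa26 cells (log2 fold change -0.96, SE 0.12, adjusted p = 0.0017). Slc6a8 had 259.8 and 233 in sgSik3 cells, against 354 and 360.0 in sgRosa26 cells (log2 fold change -0.54, SE 0.09, adjusted p = 0.0013). Slc32a1, the vesicular carrier of GABA and glycine in neurons, was a low transcript and higher in both knockouts. It had 107 and 118 in sgMef2c cells, against 51.4 and 58.6 in sgRosa26 cells (log2 fold change 1.03, SE 0.16, adjusted p = 0.0041). Slc32a1 had 87.6 and 103 in sgSik3 cells, against 48.9 and 55.8 in sgRosa26 cells (log2 fold change 0.85, SE 0.18, adjusted p = 0.0036). The betaine and GABA carrier Slc6a12 reached the testing floor only through the sgMef2c libraries. It had 22.4 and 25.8 in sgMef2c cells, against 4.94 and 4.18 in sgRosa26 cells.

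Exchangers of the Slc7 family that passed with sgSik3 differed in direction. Slc7a6 (y+LAT2) was lower, at 1522 and 1585 in sgSik3 cells, against 2214 and 2186 in sgRosa26 cells (log2 fold change -0.50, SE 0.04, adjusted p = 1.8e-05). Slc7a7 (y+LAT1) was higher, at 104 and 115 in sgSik3 cells, against 63.0 and 54.8 in sgRosa26 cells (log2 fold change 0.88, SE 0.16, adjusted p = 0.0019). The neutral amino acid exchanger Slc7a8 (LAT2) was also higher, at 519 and 509 in sgSik3 cells, against 309 and 343 in sgRosa26 cells (log2 fold change 0.66, SE 0.08, adjusted p = 1.9e-04). With sgMef2c the same directions passed, but 2 of the 3 calls depended on single libraries. Slc7a6 had a log2 fold change of -0.42 with sgMef2c (adjusted p = 0.0029). Slc7a7 had 0.62 with sgMef2c (adjusted p = 0.029), lost without guide 1, guide 2 or sgRosa26 library 2 (adjusted p = 0.0505 to 0.166). Slc7a8 had 0.42 with sgMef2c (adjusted p = 0.042), lost without guide 2, sgRosa26 library 1 or sgRosa26 library 2 (adjusted p = 0.0677 to 0.212). The lysosomal amino acid exporter Slc36a1 was modestly higher with sgSik3, at 1830.2 and 1898 in sgSik3 cells, against 1482 and 1577 in sgRosa26 cells (log2 fold change 0.29, SE 0.05, adjusted p = 0.0010). It also passed in the higher direction with sgMef2c, a call lost without guide 1 or sgRosa26 library 1.

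Over the inorganic ion carriers, 3 of 26 were higher and 4 lower with sgMef2c (16.3% and 15.1% of all genes). The sgSik3 counts were 7 higher and 4 lower of 26 (23.9% and 23.9% of all genes). Slc12a5 (KCC2, chr2:164960846-164999731), a potassium-chloride cotransporter best known from neurons, was higher in both. It had 283 and 308 in sgMef2c cells, against 158 and 148 in sgRosa26 cells (log2 fold change 0.94, SE 0.10, adjusted p = 0.0012). Slc12a5 had 390.2 and 444 in sgSik3 cells, against 151 and 142 in sgRosa26 cells (log2 fold change 1.51, SE 0.10, adjusted p = 6.6e-06). Its widely expressed relative Slc12a4 (KCC1) was lower. It had 869 and 877 in sgMef2c cells, against 1231 and 1303 in sgRosa26 cells (log2 fold change -0.54, SE 0.05, adjusted p = 8.5e-04). Slc12a4 had 944 and 1009 in sgSik3 cells, against 1171 and 1243 in sgRosa26 cells (log2 fold change -0.31, SE 0.06, adjusted p = 0.0019). Slc8b1, the sodium-calcium exchanger of mitochondria, was higher in both. It had 4445 and 4638 in sgMef2c cells, against 3288 and 3428 in sgRosa26 cells (log2 fold change 0.44, SE 0.04, adjusted p = 7.9e-04). Slc8b1 had 4549.7 and 4683 in sgSik3 cells, against 3128 and 3270.0 in sgRosa26 cells (log2 fold change 0.53, SE 0.04, adjusted p = 7.5e-06). The sodium bicarbonate cotransporter Slc4a7, which raises cytosolic pH, was lower in both. It had 1775 and 1697 in sgMef2c cells, against 2289 and 2301 in sgRosa26 cells (log2 fold change -0.40, SE 0.04, adjusted p = 0.0012). Slc4a7 had 1727 and 1741 in sgSik3 cells, against 2178 and 2195 in sgRosa26 cells (log2 fold change -0.33, SE 0.04, adjusted p = 1.2e-04).

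Of the 26 tested metal carriers, 3 were higher and 6 lower with sgMef2c (16.3% and 15.1% of all genes). The sgSik3 counts were 5 higher and 7 lower (23.9% and 23.9% of all genes). Slc40a1 (ferroportin, chr1:45908070-45926532), the only known iron exporter of mammalian cells, was more than 2-fold higher in each knockout. It had 2272 and 3092 in sgMef2c cells, against 588 and 672 in sgRosa26 cells (log2 fold change 2.07, SE 0.14, adjusted p = 2.9e-04). Slc40a1 had 2537 and 2414 in sgSik3 cells, against 559.7 and 641 in sgRosa26 cells (log2 fold change 2.04, SE 0.07, adjusted p = 1.8e-07). Every knockout library lay far above both controls. The proton-coupled metal carriers were lower. The iron importer Slc11a2 (DMT1) had 509.8 and 563 in sgSik3 cells, against 719.6 and 725 in sgRosa26 cells (log2 fold change -0.43, SE 0.07, adjusted p = 8.8e-04). The phagosomal Slc11a1 (NRAMP1) had 108.3 and 89.4 in sgMef2c cells, against 180.0 and 259 in sgRosa26 cells (log2 fold change -1.13, SE 0.19, adjusted p = 0.0058). The other calls of these genes were less steady. Slc11a1 was lower with sgSik3 (log2 fold change -0.67, SE 0.17, adjusted p = 0.010), a call lost without guide e3 (adjusted p = 0.0757). Slc11a2 was lower with sgMef2c (log2 fold change -0.25, SE 0.06, adjusted p = 0.020), a call lost without guide 1, guide 2, sgRosa26 library 1 or sgRosa26 library 2 (adjusted p = 0.0618 to 0.0818). Slc25a37 (mitoferrin-1), which brings iron into mitochondria, was higher with sgSik3, at 4247 and 4449.6 in sgSik3 cells, against 3372 and 3573 in sgRosa26 cells (log2 fold change 0.32, SE 0.04, adjusted p = 2.3e-04). It was also higher with sgMef2c (log2 fold change 0.17), a call lost without guide 1, guide 2 or sgRosa26 library 1.

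Of the 12 tested Slc39 zinc importers, 1 was higher and 3 lower with sgMef2c (16.3% and 15.1% of all genes). The sgSik3 counts were 1 higher and 4 lower (23.9% and 23.9% of all genes). Slc39a14, Slc39a10 and Slc39a6 were the 3 lower in both, and for each of them the knockout and control libraries did not overlap. Slc39a14 (ZIP14, chr14:70303467-70351452), which also carries iron, had 541 and 526 in sgMef2c cells, against 872 and 909 in sgRosa26 cells (log2 fold change -0.74, SE 0.06, adjusted p = 5.7e-04). Slc39a14 had 466 and 498 in sgSik3 cells, against 829.7 and 867 in sgRosa26 cells (log2 fold change -0.81, SE 0.06, adjusted p = 1.5e-05). The plasma membrane zinc importer Slc39a10 (ZIP10) had 502 and 456 in sgMef2c cells, against 751 and 793 in sgRosa26 cells (log2 fold change -0.69, SE 0.08, adjusted p = 0.0011). Slc39a10 had 425 and 459.6 in sgSik3 cells, against 715 and 756 in sgRosa26 cells (log2 fold change -0.73, SE 0.07, adjusted p = 4.2e-05). Its close relative Slc39a6 (ZIP6) had 1830.1 and 1827 in sgMef2c cells, against 2378 and 2572 in sgRosa26 cells (log2 fold change -0.44, SE 0.05, adjusted p = 0.0014). Slc39a6 had 1625 and 1569 in sgSik3 cells, against 2262 and 2453 in sgRosa26 cells (log2 fold change -0.56, SE 0.05, adjusted p = 2.4e-05). Slc39a11 was the 1 higher member with sgMef2c, at 1451 and 1611 in sgMef2c cells, against 1112 and 1209.7 in sgRosa26 cells (log2 fold change 0.40, SE 0.07, adjusted p = 0.0059). It was also the 1 higher member with sgSik3 (log2 fold change 0.17), a call lost without sgRosa26 library 1, guide e1 or guide e3.

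Among the 5 tested Slc30 zinc exporters, Slc30a5, a carrier of the secretory pathway, was lower with sgMef2c (log2 fold change -0.24, SE 0.04, adjusted p = 0.0053) and with sgSik3 (log2 fold change -0.24, SE 0.04, adjusted p = 5.5e-04). Slc30a7, another carrier of the secretory pathway, was the 1 higher member with sgSik3, at 1586 and 1702 in sgSik3 cells, against 1470.3 and 1486 in sgRosa26 cells (log2 fold change 0.15, SE 0.05, adjusted p = 0.026), a call lost without guide e3 (adjusted p = 0.226). The other 3 did not pass with sgSik3, and Slc30a7 did not pass with sgMef2c (log2 fold change 0.069, adjusted p = 0.27). The copper carrier Slc31a2 (CTR2), found on endosomes and lysosomes, was higher in both. It had 1122 and 1250.4 in sgMef2c cells, against 586 and 674 in sgRosa26 cells (log2 fold change 0.91, SE 0.09, adjusted p = 7.2e-04). Slc31a2 had 1163 and 1141 in sgSik3 cells, against 558 and 643 in sgRosa26 cells (log2 fold change 0.94, SE 0.07, adjusted p = 1.2e-05).

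**Figure D3:**
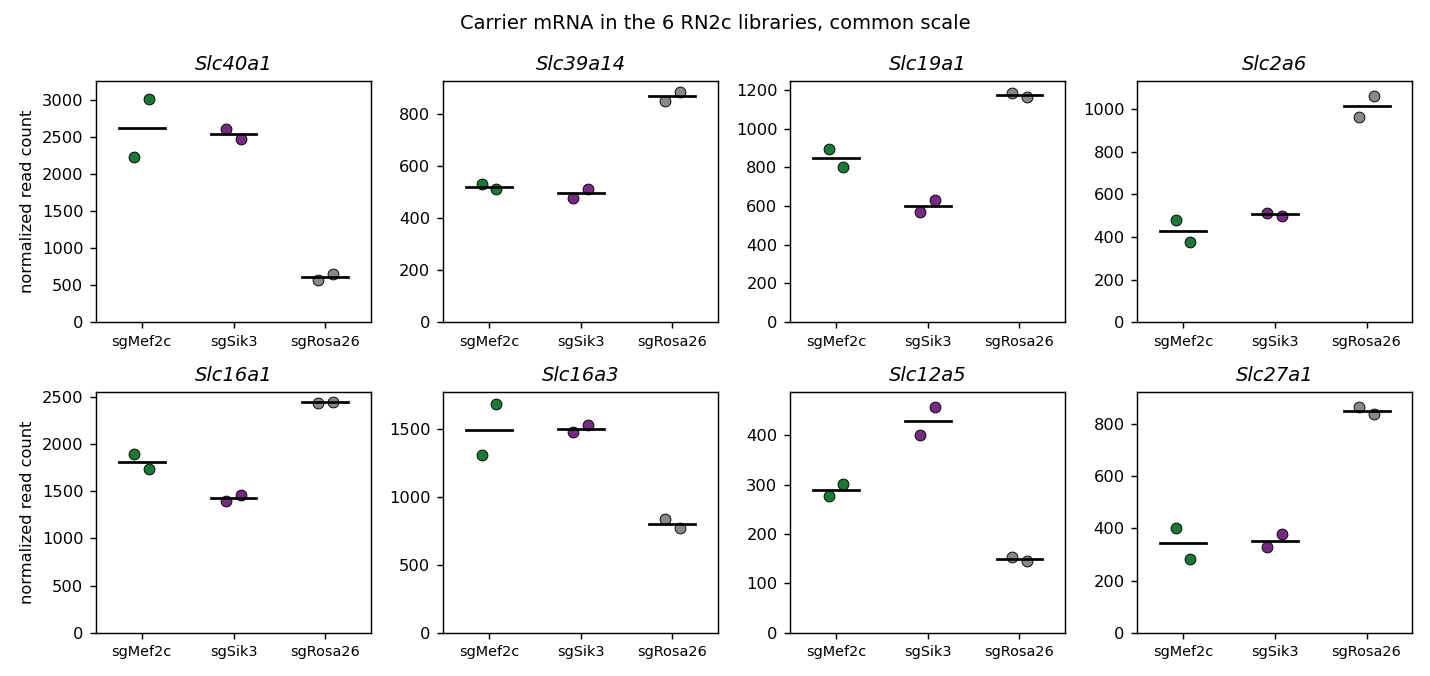
Normalized read count on the common RN2c scale (y axis, from 0) of 8 carriers in each library (points) with the group mean (line), for sgMef2c, sgSik3 and sgRosa26 cells. Slc40a1, Slc16a3 and Slc12a5 are higher and Slc39a14, Slc19a1, Slc2a6, Slc16a1 and Slc27a1 lower in every knockout library than in either control library.

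Mitochondrial carriers had 7 of 39 members higher and 9 lower with sgMef2c (16.3% and 15.1% of all genes). The sgSik3 counts were 8 higher and 13 lower of 39 (23.9% and 23.9% of all genes). The ADP/ATP carrier Slc25a4 was lower with sgSik3. It had 1999 and 2073 in sgSik3 cells, against 3002 and 3022 in sgRosa26 cells (log2 fold change -0.56, SE 0.04, adjusted p = 5.8e-06). Its paralog Slc25a5 was lower too, at 10493 and 10335 in sgSik3 cells, against 13516 and 13283 in sgRosa26 cells (log2 fold change -0.36, SE 0.03, adjusted p = 2.0e-05). The phosphate carrier Slc25a3 was lower by less, at 7731 and 7694 in sgSik3 cells, against 9625 and 9318 in sgRosa26 cells (log2 fold change -0.30, SE 0.03, adjusted p = 8.7e-05). All 3 also passed in the lower direction with sgMef2c. Their log2 fold changes with sgMef2c were -0.43 for Slc25a4, -0.19 for Slc25a5 and -0.20 for Slc25a3 (adjusted p = 0.0025, 0.0095 and 0.014). The sgMef2c call of Slc25a5 was lost without sgRosa26 library 1 (adjusted p = 0.0664). That of Slc25a3 was lost without guide 2 or sgRosa26 library 1 (adjusted p = 0.0548 to 0.0848). Slc25a4 and Slc25a5 are close copies with processed pseudogenes, so how reads were split between them is uncertain. Slc25 reads took up 0.266% and 0.256% of all reads in sgMef2c cells, 0.252% and 0.253% in sgSik3 cells and 0.285% and 0.279% in sgRosa26 cells.

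The ornithine carrier Slc25a15 of the urea cycle was lower in both knockouts. It had 685 and 594 in sgMef2c cells, against 1012 and 967 in sgRosa26 cells (log2 fold change -0.63, SE 0.08, adjusted p = 0.0018). Slc25a15 had 657 and 672 in sgSik3 cells, against 962 and 922 in sgRosa26 cells (log2 fold change -0.50, SE 0.06, adjusted p = 1.0e-04). The glutamate carrier Slc25a22 was lower with sgSik3, at 552 and 591 in sgSik3 cells, against 842 and 791 in sgRosa26 cells (log2 fold change -0.51, SE 0.07, adjusted p = 2.2e-04), and with sgMef2c (log2 fold change -0.44, SE 0.07, adjusted p = 0.0051). Higher members with sgSik3 included the basic amino acid carrier Slc25a29, at 401 and 406 in sgSik3 cells, against 245 and 261 in sgRosa26 cells (log2 fold change 0.67, SE 0.08, adjusted p = 2.1e-04). The ATP-magnesium and phosphate carrier Slc25a24 was higher as well, at 1752 and 1716 in sgSik3 cells, against 1271 and 1205 in sgRosa26 cells (log2 fold change 0.49, SE 0.05, adjusted p = 4.0e-05). So was Slc25a47, known from liver, at 314 and 282 in sgSik3 cells, against 144 and 172 in sgRosa26 cells (log2 fold change 0.92, SE 0.12, adjusted p = 2.6e-04). For these 3 every sgSik3 library lay above both controls. All 3 also passed in the higher direction with sgMef2c. Those sgMef2c calls were lost without guide 2, and without at least 1 of the sgRosa26 libraries.

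Vitamin and nucleoside carriers had 3 of 14 members higher and 5 lower with sgMef2c (16.3% and 15.1% of all genes). The sgSik3 counts were 2 higher and 7 lower of 14 (23.9% and 23.9% of all genes). The reduced folate carrier Slc19a1 (chr10:77032269-77050432), through which methotrexate also enters cells, had 912 and 819.6 in sgMef2c cells, against 1215 and 1192 in sgRosa26 cells (log2 fold change -0.48, SE 0.07, adjusted p = 0.0025). Slc19a1 had 556 and 616 in sgSik3 cells, against 1156 and 1137 in sgRosa26 cells (log2 fold change -0.97, SE 0.06, adjusted p = 5.1e-06). The mitochondrial folate carrier Slc25a32 had 353 and 370.1 in sgSik3 cells, against 481 and 523 in sgRosa26 cells (log2 fold change -0.47, SE 0.08, adjusted p = 0.0011). The proton-coupled folate carrier Slc46a1 had 93.4 and 100.4 in sgSik3 cells, against 157 and 137 in sgRosa26 cells (log2 fold change -0.59, SE 0.14, adjusted p = 0.0067), a call lost without guide e1 (adjusted p = 0.0548). With sgMef2c, Slc25a32 was lower (log2 fold change -0.31, SE 0.08, adjusted p = 0.021), a call lost without guide 1, guide 2 or sgRosa26 library 2 (adjusted p = 0.0652 to 0.109). Slc46a1 was not past the test with sgMef2c (log2 fold change -0.34, SE 0.14, adjusted p = 0.10). The thiamine carrier Slc19a2 was lower with sgSik3, at 685 and 659 in sgSik3 cells, against 871 and 1020.2 in sgRosa26 cells (log2 fold change -0.49, SE 0.08, adjusted p = 8.2e-04). It also passed in the lower direction with sgMef2c, a call lost without guide 1, guide 2 or sgRosa26 library 2. The ascorbate carrier Slc23a2 was lower with sgMef2c, at 1326 and 1360.2 in sgMef2c cells, against 1757 and 1969 in sgRosa26 cells (log2 fold change -0.47, SE 0.06, adjusted p = 0.0022). With sgSik3, Slc23a2 did not pass (log2 fold change -0.13, SE 0.06, adjusted p = 0.11).

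Of the 3 tested equilibrative nucleoside carriers (Slc29), 2 were lower with sgSik3 (23.9% of all genes) and 1 did not pass. Slc29a2 (ENT2) was lower, at 68.1 and 81.9 in sgSik3 cells, against 140.2 and 142 in sgRosa26 cells (log2 fold change -0.91, SE 0.15, adjusted p = 0.0010). Slc29a1 (ENT1), the main entry route of cytarabine, was lower too, at 1089.7 and 1129.9 in sgSik3 cells, against 1392 and 1312 in sgRosa26 cells (log2 fold change -0.28, SE 0.05, adjusted p = 0.0016). Slc28a2, the 1 tested concentrative carrier, was higher, at 399.9 and 385 in sgSik3 cells, against 181 and 281 in sgRosa26 cells (log2 fold change 0.80, SE 0.17, adjusted p = 0.0047). The purine nucleobase carrier Slc43a3 was also higher, at 3149 and 3090.5 in sgSik3 cells, against 2496 and 2335 in sgRosa26 cells (log2 fold change 0.37, SE 0.04, adjusted p = 1.2e-04). With sgMef2c all 4 passed in the same directions, but only the Slc43a3 call held with each library left out. The sgMef2c log2 fold changes were -0.83 for Slc29a2, -0.26 for Slc29a1, 0.84 for Slc28a2 and 0.51 for Slc43a3. The Slc29a2 call was lost without guide 2 or sgRosa26 library 2 (adjusted p = 0.0507 to 0.051). The Slc29a1 call was lost without guide 2 or sgRosa26 library 1 (adjusted p = 0.0781 to 0.0835), and that of Slc28a2 without guide 2 (adjusted p = 0.0597).

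Apart from Slco4a1, the organic ion and bile acid carriers past the test were all higher. They were 5 of 10 tested with sgMef2c (16.3% of all genes) and 5 of 10 with sgSik3 (23.9% of all genes). The class has 50 members. Slc22a4 (OCTN1), which takes up ergothioneine, had 1475 and 1542 in sgMef2c cells, against 1105 and 1168 in sgRosa26 cells (log2 fold change 0.41, SE 0.05, adjusted p = 0.0021). Slc22a4 had 1529 and 1603 in sgSik3 cells, against 1052 and 1114 in sgRosa26 cells (log2 fold change 0.53, SE 0.05, adjusted p = 4.0e-05). Its relative Slc22a15 had 356 and 431 in sgMef2c cells, against 192 and 211 in sgRosa26 cells (log2 fold change 0.96, SE 0.12, adjusted p = 0.0017). Slc22a15 had 411 and 406 in sgSik3 cells, against 182 and 201 in sgRosa26 cells (log2 fold change 1.09, SE 0.09, adjusted p = 2.1e-05). Knockout and control libraries of both genes did not overlap. The lysosomal sialic acid exporter Slc17a5 had 596 and 556 in sgSik3 cells, against 356 and 432 in sgRosa26 cells (log2 fold change 0.55, SE 0.10, adjusted p = 0.0015). It also passed in the higher direction with sgMef2c, a call lost without guide 2 or sgRosa26 library 1. Slco4c1, a kidney organic anion carrier counted among the higher members, reached the testing floor only through the knockout groups. It had 41.2 and 79.7 in sgMef2c cells, against 6.92 and 5.23 in sgRosa26 cells. In the sgSik3 table Slco4c1 had 47.7 and 48.0 in sgSik3 cells, against 6.58 and 4.99 in sgRosa26 cells.

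Of the 8 tested choline, fatty acid and amine carriers, 3 were lower with sgMef2c (15.1% of all genes). The sgSik3 counts were 1 higher and 2 lower (23.9% and 23.9% of all genes). The fatty acid carrier Slc27a1 (FATP1, chr8:71568728-71587307) was more than 2-fold lower in each knockout. It had 411 and 289.7 in sgMef2c cells, against 888 and 857 in sgRosa26 cells (log2 fold change -1.34, SE 0.15, adjusted p = 0.0012). Slc27a1 had 321 and 367 in sgSik3 cells, against 845 and 818 in sgRosa26 cells (log2 fold change -1.27, SE 0.08, adjusted p = 3.8e-06). The choline carrier-like gene Slc44a2 was lower in both by less. It had 3412 and 3296 in sgMef2c cells, against 4388 and 4408 in sgRosa26 cells (log2 fold change -0.39, SE 0.04, adjusted p = 8.1e-04). Slc44a2 had 3389.9 and 3443 in sgSik3 cells, against 4175 and 4204 in sgRosa26 cells (log2 fold change -0.29, SE 0.03, adjusted p = 1.1e-04). Nucleotide sugar carriers of the Golgi and endoplasmic reticulum had 1 of 15 higher and 3 lower with sgMef2c (16.3% and 15.1% of all genes). The 3 lower include Slc35d3, which reached the testing floor only through the controls. All of these sgMef2c calls were lost when some single library was left out. The sgSik3 counts were 3 higher and 2 lower of 15 (23.9% and 23.9% of all genes). Slc35b1, known in human cells to bring ATP into the endoplasmic reticulum, was lower with sgSik3, at 1357 and 1332.9 in sgSik3 cells, against 1679 and 1561 in sgRosa26 cells (log2 fold change -0.27, SE 0.05, adjusted p = 0.0019). It also passed in the lower direction with sgMef2c, a call lost without sgRosa26 library 1. Among members with no substrate class here, Slc35e4 was lower in both. It had 181 and 149.7 in sgMef2c cells, against 256 and 280.2 in sgRosa26 cells (log2 fold change -0.70, SE 0.13, adjusted p = 0.0068). Slc35e4 had 153 and 135 in sgSik3 cells, against 244 and 267 in sgRosa26 cells (log2 fold change -0.82, SE 0.11, adjusted p = 3.9e-04). Slc35e1 was higher with sgMef2c (log2 fold change 0.40, SE 0.05, adjusted p = 0.0018) and with sgSik3 (log2 fold change 0.42, SE 0.03, adjusted p = 1.4e-05). Slc35g1 was lower with sgSik3 (log2 fold change -0.48, SE 0.06, adjusted p = 2.9e-04) and with sgMef2c (log2 fold change -0.29, SE 0.06, adjusted p = 0.013), the sgMef2c call being lost without guide 2 or sgRosa26 library 2 (adjusted p = 0.0664 to 0.0691). Slc9a3r1 bears the prefix but encodes a scaffold protein of the membrane cytoskeleton. It was higher with sgMef2c (log2 fold change 0.41, SE 0.06, adjusted p = 0.0024) and with sgSik3 (log2 fold change 0.55, SE 0.04, adjusted p = 1.7e-05).

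The other calls of more than 2-fold were in low transcripts. In the sgMef2c table, Slc35d3 reached the testing floor only through the controls, with 6.27 and 4.31 in sgMef2c cells, against 24.7 and 20.9 in sgRosa26 cells. Slc26a8, an anion carrier known from sperm, was higher with sgMef2c, at 35.8 and 58.2 in sgMef2c cells, against 15.8 and 10.5 in sgRosa26 cells (log2 fold change 1.75, SE 0.34, adjusted p = 0.0092), a call lost without guide 2 (adjusted p = 0.0615). With sgSik3, Slc26a8 was higher as well, at 37.0 and 24.02 in sgSik3 cells, against 15.1 and 9.97 in sgRosa26 cells (log2 fold change 1.22, SE 0.34, adjusted p = 0.017), and that call was lost without guide e1 (adjusted p = 0.153). The urate carrier Slc17a3 (NPT4) was the steadier of this set with sgSik3, where its call held with each library left out. It had 36.0 and 37.1 in sgSik3 cells, against 17.9 and 12 in sgRosa26 cells (log2 fold change 1.26, SE 0.29, adjusted p = 0.0063). With sgMef2c, Slc17a3 had 32.2 and 49.5 in sgMef2c cells, against 18.8 and 12.5 in sgRosa26 cells (log2 fold change 1.32, SE 0.33, adjusted p = 0.021), a call lost without guide 2 or sgRosa26 library 2 (adjusted p = 0.0838 to 0.136). Slc22a18 was higher with sgMef2c (log2 fold change 1.11, SE 0.32, adjusted p = 0.037), a call lost without guide 1, guide 2 or sgRosa26 library 2 (adjusted p = 0.0699 to 0.164). The neutral amino acid exchanger Slc1a4 (ASCT1) was lower with sgSik3, at 27.2 and 33.8 in sgSik3 cells, against 92.2 and 47.9 in sgRosa26 cells (log2 fold change -1.11, SE 0.30, adjusted p = 0.015), a call lost without sgRosa26 library 1 or guide e1 (adjusted p = 0.0651 to 0.0992).

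**Figure D4:**
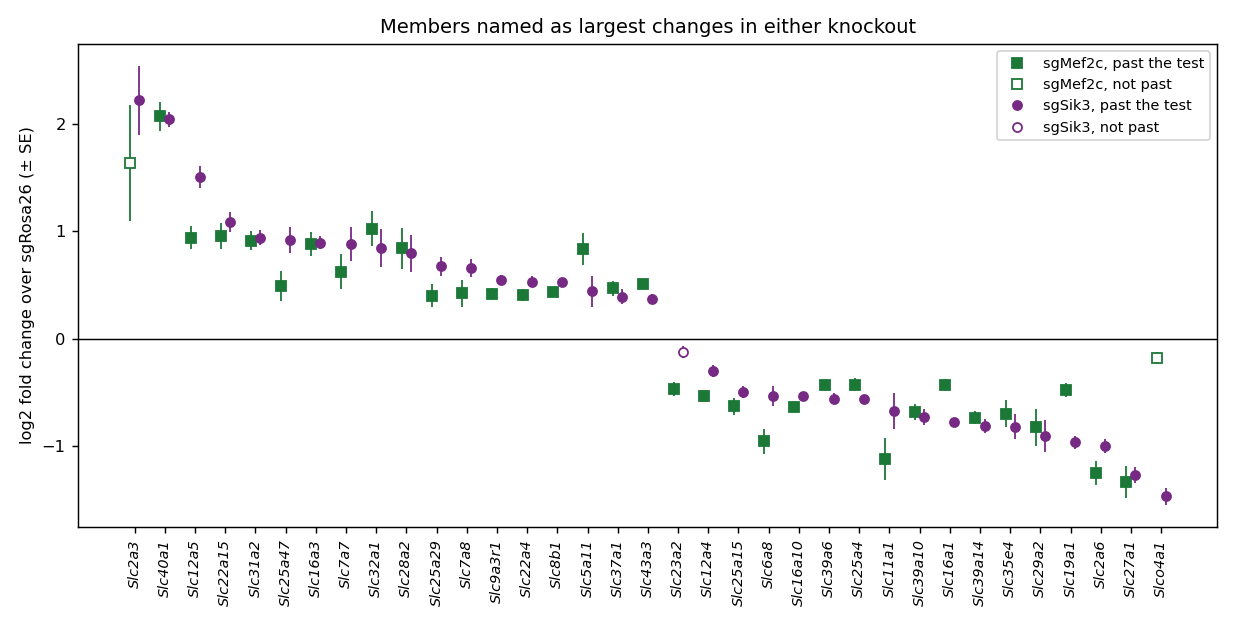
Log2 fold change over sgRosa26 on the log2(value + 1) scale (y axis) with its SE (bars) for sgMef2c (squares) and sgSik3 (circles), for the carriers with the largest changes in either comparison that held with each library left out; open symbols did not pass the test. Slc40a1 lies above 2 in both and Slc27a1 below -1 in both, while Slco4a1 lies at -1.47 with sgSik3 and at -0.18 with sgMef2c.

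Set directly against sgSik3 cells on the recovered reads, sgMef2c cells had 8 of 199 carriers higher and 9 lower, 8.54% in all, where 9.44% of all 10952 genes passed (3.7% higher and 5.74% lower). The gap between these shares was not tested. Without either sgSik3 guide, 1 was higher and 0 lower, the 1 being Slco4a1, so the other 16 calls were lost when either sgSik3 library was left out. By edgeR, 53 of 199 carriers had an unadjusted p under 0.05, where 25.9% of all genes did. DESeq2 passed 4 carriers higher and 6 lower, and 598 of all 10952 genes.

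After Slco4a1, the differences were smaller. The folate carrier Slc19a1 had 894 and 799.5 in sgMef2c cells, 571 and 633 in sgSik3 cells, against 1184 and 1164 in sgRosa26 cells (log2 fold change 0.49, SE 0.07, adjusted p = 0.0044, sgMef2c over sgSik3). The lactate carrier Slc16a1 had 1896 and 1732 in sgMef2c cells, 1396 and 1460.4 in sgSik3 cells, against 2434 and 2450.0 in sgRosa26 cells (log2 fold change 0.34, SE 0.05, adjusted p = 0.0053). For both genes sgMef2c cells lay between sgSik3 and sgRosa26 cells. The calls were lost for Slc19a1 without guide e1 or guide e3 (adjusted p = 0.0563 to 0.105) and for Slc16a1 without guide e1 or guide e3 (adjusted p = 0.0835 to 0.108). Slc12a5 had 277 and 300.5 in sgMef2c cells, 401 and 457 in sgSik3 cells, against 154 and 145 in sgRosa26 cells (log2 fold change -0.58, SE 0.10, adjusted p = 0.0074). Again sgMef2c cells lay in between, and the call was lost without guide e1 or guide e3 (adjusted p = 0.0678 to 0.125). The lysosomal peptide and histidine carrier Slc15a3 had 158 and 133 in sgMef2c cells, 254 and 274 in sgSik3 cells, against 174 and 173 in sgRosa26 cells (log2 fold change -0.85, SE 0.12, adjusted p = 0.0031). Here sgSik3 cells stood above both other groups, and the call was lost without guide e1 or guide e3 (adjusted p = 0.0607 to 0.0803). The choline carrier-like gene Slc44a1 had 90.4 and 95.6 in sgMef2c cells, 162 and 141 in sgSik3 cells, against 120.5 and 139 in sgRosa26 cells (log2 fold change -0.72, SE 0.14, adjusted p = 0.015). It lost its call without guide 1, guide e1 or guide e3 (adjusted p = 0.0719 to 0.156). The ascorbate carrier Slc23a2 had 1299.8 and 1327 in sgMef2c cells, 1631 and 1708 in sgSik3 cells, against 1712 and 1922 in sgRosa26 cells (log2 fold change -0.35, SE 0.06, adjusted p = 0.0078). Here sgMef2c cells lay below both other groups, and the call was lost without guide e1 or guide e3 (adjusted p = 0.1 to 0.14).

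The smaller calls lay between -0.24 and 0.22 on the log2 scale. They included Slc12a4, Slc25a24, Slc25a37 and Slc38a2, lower in sgMef2c than in sgSik3 cells, and Slc25a5, Slc25a12, Slc25a39, Slc35a4 and Slc39a11, higher. Unlike Slc12a5, several other carriers with large changes in both knockouts did not pass this test, which does not show that their levels are equal. Slc40a1 had a log2 difference of 0.031 (SE 0.11), Slc31a2 of -0.039 (SE 0.07) and Slc16a3 of -0.017 (SE 0.10). Slc2a6 had a log2 difference of -0.24 (SE 0.11) and Slc27a1 of -0.036 (SE 0.15). The granulocyte list also differed here, with 3 of 13 members higher and 3 lower in sgMef2c than in sgSik3 cells. The myeloid list had 1 of 7 higher and 3 lower, and the 1 tested endothelial marker was lower. The part of these lists in the differences was not tested.

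In RN2 cells treated for 2 hours, Slco4a1 was the 1 carrier of 189 tested that passed (0.529%), where 0.317% of all 10732 genes passed (0.0373% higher and 0.28% lower). A further 16 carriers had an unadjusted p under 0.05 by limma, making 17 of 189, where 7.32% of all genes did. The gap between these shares was not tested. No member of the granulocyte list passed the test. Other carriers described below did not pass. Slc25a25, a mitochondrial ATP-magnesium and phosphate carrier that responds to calcium, had 478 and 407 in treated cells, against 597 and 585 in DMSO cells (log2 fold change -0.42, SE 0.09, adjusted p = 0.13). Slc39a6 had 1481 and 1514 in treated cells, against 1844 and 1716 in DMSO cells (log2 fold change -0.25, SE 0.05, adjusted p = 0.13). Slc39a14 had 369 and 404 in treated cells, against 471 and 504 in DMSO cells (log2 fold change -0.34, SE 0.09, adjusted p = 0.23). For neither zinc importer did the groups overlap. Slc40a1 had 523 and 509 in treated cells, against 390.4 and 466 in DMSO cells (log2 fold change 0.27, SE 0.10, adjusted p = 0.50). Treated and DMSO libraries of Slc40a1 did not overlap. The fructose carrier Slc2a5, which reached the testing floor only through the treated libraries, had 27.2 and 27.4 in treated cells, against 6.30 and 12 in DMSO cells and did not pass (adjusted p = 0.19). Slc22a4 had 751 and 795 in treated cells, against 681 and 678 in DMSO cells (log2 fold change 0.19, SE 0.07, adjusted p = 0.53). Other carriers named for the knockouts had small differences that did not pass. Slc16a1 had a log2 fold change of -0.11 (adjusted p = 0.68), Slc19a1 had -0.064 (adjusted p = 0.89) and Slc2a6 had 0.011 (adjusted p = 0.99). Without DMSO library 2, 3 carriers were higher and 5 lower, and without DMSO library 1 or inhibitor library 1, 2 were lower.

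In MOLM-13 cells treated for 2 hours, none of 202 tested carriers passed by limma, where 0.0% of all 11361 genes passed. By edgeR 0 and by DESeq2 0 carriers passed. By limma, 2 of 202 had an unadjusted p under 0.05, both higher, where 1.27% of all genes did. The glucose transporter SLC2A1 (GLUT1) had 2502 and 2379 in treated cells, against 1979 and 1979 in DMSO cells (log2 fold change 0.30, SE 0.09, adjusted p = 1.0). The groups did not overlap. SLC35E4, which reached the testing floor only through the treated libraries, had 17.4 and 19.1 in treated cells, against 6.29 and 8.55 in DMSO cells and did not pass (adjusted p = 1.0). Of the lower carriers, SLC39A13, a zinc carrier of the secretory pathway, had 277 and 289 in treated cells, against 326 and 336 in DMSO cells (log2 fold change -0.23, SE 0.12, adjusted p = 1.0). SLC25A25 had 330.2 and 310.5 in treated cells, against 352 and 408 in DMSO cells (log2 fold change -0.24, SE 0.13, adjusted p = 1.0). SLC40A1 was under the testing floor, with 2.32 and 1.91 normalized reads in treated cells, against 3.14 and 5.13 in DMSO cells. Dose and species differ between the treated lines, so the values stand side by side without a test of their difference.

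**Figure D5:**
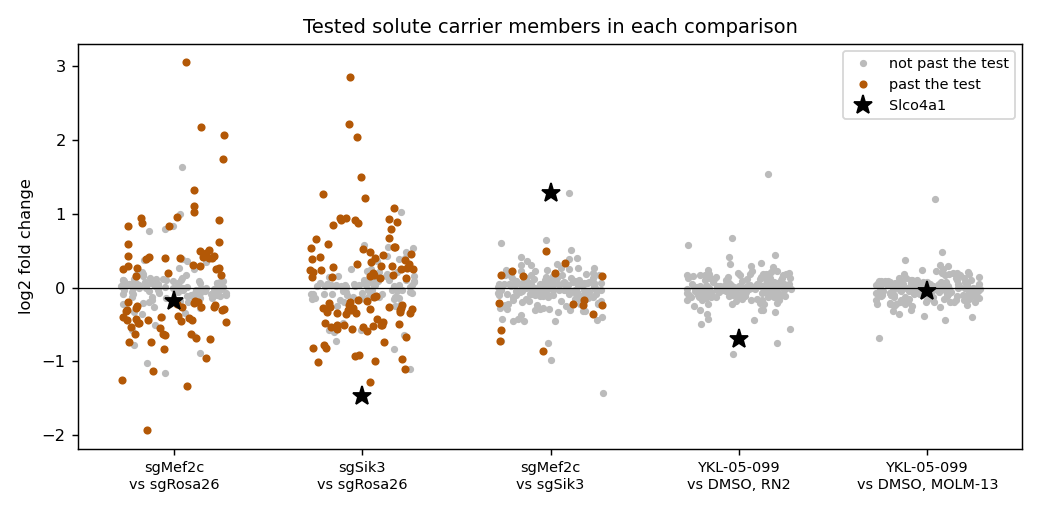
Log2 fold change (y axis) of every tested carrier (points) in each comparison, with those past the test in orange and Slco4a1 as a star; horizontal scatter within a column carries no meaning. The knockout columns spread widely on both sides of 0, Slco4a1 stands at 1.29 between the knockouts and at -0.69 in treated RN2 cells, and the MOLM-13 column holds 0 carriers past the test.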

How the data were processed

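Messenger RNA was measured in 14 libraries. The submitters' processing notes name HISAT2, featureCounts, DESeq2 and the builds hg19 and mm10, with no version stated. What the authors deposited is 4 separately normalized tables whose values are a signal, the read count of a gene divided by a size factor. Dividing by the smallest nonzero value of a library gave whole reads for 100% of values (tolerance 1e-06 reads). Both knockout tables hold the same sgRosa26 libraries. Separate cultures are not stated for the libraries of a group, and a p-value covers the spread between these libraries alone, which may be technical. The spread of a gene is estimated with help from the other genes of the fit. Libraries of a group differed by more than counting noise.

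Each table was fitted with limma 3.58.1 in R 4.3.3 (log2 of value + 1, mean-variance trend, two-sided, genes with a mean of at least 10, Benjamini-Hochberg over all genes, threshold 0.05). This scale understates the change of low genes. The knockouts were compared by edgeR 4.0.16 (quasi-likelihood, TMM) on the recovered read counts of 6 RN2c libraries. The SE in that comparison was derived from the log2 fold change and its F statistic, since edgeR gives none. Both fits were run on simulated reads with the same spread set for every gene and few genes changed. The libraries here differ from that setting, so the simulation does not show their error rates. Alternatives were edgeR, DESeq2 1.42.0, other pseudocounts, filters and scalings, a replicate block and each library left out.

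The members, substrate classes and lists were chosen with earlier results of these data known. Named members were, per comparison and direction, up to 12 of the largest changes among those with a mean of at least 50 that passed with all libraries and with each left out and did not overlap. Below 3 they were filled by size. The 3 of lowest p in each class and Slco4a1 were added, and a member named in 1 comparison may be given in others. Rule-named members that did not pass are printed only in part. A rule-named member that passed is not reported here. Slc17a3, Slc1a4, Slc22a18, Slc26a8, Slc5a3, Slc6a12, Slc25a3, Slc25a32, Slc29a1, Slc30a7, Slc36a1 and Slc46a1 were chosen after their values were seen. Gene positions and promoters come from RefSeq GRCm38.p6 and exon lengths from GENCODE vM21; all 378 mouse members matched both annotations.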

Additional observations from a re-analysis of the deposited data

Results flagged for a closer look

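Only carriers that the naming rule picked in RN2 or MOLM-13 were searched here. That rule takes the lowest p of each class in these same libraries, so it favors carriers whose groups do not overlap. For 6 of the carriers searched, treated and DMSO libraries did not overlap in either of the 2 lines given the inhibitor. The difference had opposite signs in the 2 lines. With 2 libraries a group, such separation arises often even where nothing differs. Groups did not overlap for 67 of 189 tested carriers in RN2 and 44 of 202 in MOLM-13. The share of all genes whose groups did not overlap was not computed, so no result is drawn from these counts. Passing the test is a different measure, met by 0.317% of all genes in RN2 and 0.0% in MOLM-13. None of the 6 passed in either line, the doses differ (350 nM in RN2 and 250 nM in MOLM-13), and the difference between the lines was not tested. Log2 fold changes over DMSO are given for RN2 first and MOLM-13 after it. The ergothioneine carrier Slc22a4 had 0.19 in RN2 and -0.20 in MOLM-13. The glucose transporter Slc2a1 had -0.11 in RN2 and 0.30 in MOLM-13. The nucleotide sugar carrier Slc35b3, which brings the sulfate donor PAPS into the Golgi, had -0.10 in RN2 and 0.098 in MOLM-13. Slc35g1 had -0.081 in RN2 and 0.24 in MOLM-13. The zinc carrier Slc39a13 had 0.22 in RN2 and -0.23 in MOLM-13. The glycine carrier Slc6a9 had 0.12 in RN2 and -0.68 in MOLM-13, where it reached the testing floor only through the DMSO libraries.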

How the results depend on the processing

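With 2 libraries a group, the counts of carriers past the test move with the method and with single libraries. By DESeq2, 29 were higher with sgSik3, 28 lower with sgMef2c and 4 higher in sgMef2c against sgSik3. Without the mean-variance trend, 22 were higher with sgMef2c and 0 lower in treated RN2, and without a filter 0 were lower in RN2. Leaving out each library in turn gave 19 to 35 higher and 23 to 36 lower with sgMef2c, 33 to 52 higher and 37 to 54 lower with sgSik3, 1 to 10 higher and 0 to 11 lower in sgMef2c against sgSik3, 0 to 3 higher and 1 to 5 lower in RN2, and 0 in MOLM-13. The cause was not tested. The replicate numbers do not come with a stated pairing: correlations of same-numbered deviations were 0.051 in sgMef2c, 0.22 in RN2 and 0.53 in MOLM-13 over 2 pairs each. With the replicate number as a block, 3 carriers were higher and 6 lower in RN2, 1 higher and 3 lower in MOLM-13, and 41 higher and 48 lower with sgMef2c. For sgMef2c the number is that of the guide, so this block sets a guide beside a control library with no stated link to it. For sgSik3 and the direct comparison no paired analysis was possible because the groups share fewer than 2 numbers. The largest changes were named only where their calls held with each library left out. The shares that follow are therefore partly set by the naming and do not describe all carriers past the test. For the named carriers, direction and side of the threshold were kept in 501 of 530 alternatives with sgMef2c and 517 of 527 with sgSik3. Among the named carriers they were kept in 377 of 430 in the direct comparison, 452 of 475 in RN2 and 452 of 473 in MOLM-13. Signs turned only when a library was left out, and only in carriers not past the test; their log2 ranges were, in MOLM-13, -0.00042 to 0.27 for SLC15A4, -0.15 to 0.097 for SLC16A1, -0.14 to 0.12 for SLC16A3, -0.15 to 0.51 for SLC16A7, -0.28 to 0.069 for SLC17A5, -0.019 to 0.42 for SLC22A16, -0.81 to 0.0094 for SLC27A3, -0.46 to 0.016 for SLC29A2, -0.054 to 0.20 for SLC9A3R1, -0.44 to 0.071 for SLC9A3R2 and -0.27 to 0.19 for SLCO4A1. In RN2 they were -0.015 to 0.12 for Slc16a3 and -0.14 to 0.24 for Slc4a1ap, and in the direct comparison -0.0060 to 0.039 for Slc4a1ap and -0.0088 to 0.078 for Slc7a6os. Read depth leaves carriers below a mean of 10 untested.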

Other observations

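Carriers and pumps outside the Slc names also passed the test in the knockout tables. From a list of 32, chosen with earlier results known, 29 were tested in the mouse tables. With sgMef2c 10 were higher and 3 lower, where 16.3% of all genes were higher and 15.1% lower. With sgSik3 12 were higher and 7 lower, where 23.9% of all genes were higher and 23.9% lower. With the inhibitor 0 of 29 passed in RN2 by limma (0.317% of all genes) and 4 had an unadjusted p under 0.05 (7.32% of all genes). In MOLM-13 0 of 31 passed by limma (0.0% of all genes) and 1 had an unadjusted p under 0.05 (1.27% of all genes). The sodium pump subunit Atp1b1 was more than 2-fold higher in each knockout. Atp1b1 had 128.0 and 175.5 normalized reads in sgMef2c cells, against 38.6 and 35.5 in sgRosa26 cells (log2 fold change 1.99, SE 0.20, adjusted p = 7.8e-04). It had 135 and 117 in sgSik3 cells, against 36.7 and 33.9 in sgRosa26 cells (log2 fold change 1.80, SE 0.17, adjusted p = 4.3e-05). Atp2a3, a calcium pump of the endoplasmic reticulum in blood cells, was also higher in both. It had 16083 and 18198 normalized reads in sgMef2c cells, against 10641 and 11591 in sgRosa26 cells (log2 fold change 0.62, SE 0.07, adjusted p = 0.0011). Atp2a3 had 15915 and 15580.1 in sgSik3 cells, against 10123 and 11055 in sgRosa26 cells (log2 fold change 0.57, SE 0.04, adjusted p = 1.0e-05).

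The mitochondrial pyruvate carrier subunit Mpc2 was higher with sgSik3, at 997 and 921 normalized reads in sgSik3 cells, against 644 and 630.3 in sgRosa26 cells (log2 fold change 0.59, SE 0.06, adjusted p = 6.5e-05). With sgMef2c, Mpc2 had 809 and 851, against 677 and 661 in sgRosa26 cells (log2 fold change 0.31, adjusted p = 0.0095), a call lost without guide 2 (adjusted p = 0.059). Spns3, a relative of sphingosine-1-phosphate exporters, was higher in both knockouts. It had 382 and 471 in sgMef2c cells, against 151 and 178 in sgRosa26 cells (log2 fold change 1.37, SE 0.13, adjusted p = 7.7e-04). Spns3 had 281 and 243 in sgSik3 cells, against 144 and 169.5 in sgRosa26 cells (log2 fold change 0.74, SE 0.12, adjusted p = 0.0012). Between the knockouts, 2 of the 29 were higher and 4 lower in sgMef2c than in sgSik3 cells (3.7% and 5.74% of all genes), and each of these 6 calls was lost when either sgSik3 library was left out. The part of the granulocyte marker shift in these values was not tested.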
